A study of Mus musculus with 6 samples.

Results

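Polydendrocytes, the oligodendrocyte precursor cells of the brain, were examined in hippocampi of 6 APP/PS1 mice profiled by Drop-Seq. In this method each cell is caught in a droplet with a barcoded bead, and each molecule captured by its 3′ end is counted by a unique molecular identifier (UMI). Cells were taken by the class name in the deposited column labels, and 954 of the 12823 cells in 17 classes were named Polydendrocyte. Of these, 9 were called doublets and removed, which left 945 polydendrocytes among 12616 cells. In 3 mice an antisense oligonucleotide (ASO) had been given, and in 3 mice phosphate buffered saline (PBS). Mice of both groups were of the B6.Cg-Tg(APPswe,PSEN1dE9)85Dbo/Mmjax strain, so the PBS mice also carried the amyloid transgenes, and the labels give an age of 10 weeks for all 6. The transgenes of this strain are driven by a prion protein promoter. The title of the study names reduction of IDOL, the ubiquitin ligase encoded by Mylip that marks lipoprotein receptors for degradation. No control oligonucleotide was given to the PBS mice, so what any oligonucleotide does and what lower Mylip does cannot be told apart.

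Polydendrocytes, also called NG2 glia after the proteoglycan encoded by Cspg4, sense platelet-derived growth factor through the receptor encoded by Pdgfra and keep dividing in the adult brain. They receive synapses from neurons, carry glutamate and GABA receptors, and surround themselves with chondroitin sulphate proteoglycans. A cell that leaves this state passes through a short committed stage, in which Bmp4, Gpr17, Enpp6, Bcas1 and Tcf7l2 are switched on and Pdgfra is switched off, before it makes myelin.

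The ASO mice gave 166, 213 and 85 polydendrocytes with 174683, 230766 and 96362 UMIs in sum, and the PBS mice gave 143, 126 and 212 with 168938, 137827 and 249406 UMIs. The median polydendrocyte had 965.5, 1035 and 1068 UMIs in the ASO mice and 1185, 1030.5 and 1140.5 UMIs in the PBS mice. Of 8 barcodes found in more than 1 mouse, 0 belonged to polydendrocytes. Mylip, measured in microglia, where it is abundant, had 167, 199 and 175 CPM (UMIs of the gene per 1000000 UMIs of the class in that mouse) in the ASO mice against 354, 375 and 390 CPM in the PBS mice. PBS mouse 3 stood apart in free RNA: Ttr, a choroid plexus transcript, had 3200, 2236 and 5739 CPM in polydendrocytes of the ASO mice and 3155, 4614 and 68.2 CPM in those of the PBS mice.

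The class carried its defining markers in every mouse. Levels below are CPM of all UMIs, pooled over the 6 mice unless given per mouse, and were compared over the 10 classes with at least 20 cells in each mouse as a description, without a test, because the class names were drawn from the same cells. Pdgfra, at chromosome 5, 75152292 to 75198215 on the plus strand of build GRCm38, had 1454, 1322 and 1463 CPM in the ASO mice and 1361, 1408 and 1419 CPM in the PBS mice. Its next highest class among the 10, endothelial cells, had 7.47 CPM. The 6 mice of the precursor class lay close together and far above the other compared classes. Fibroblast-like cells and the other classes with fewer cells were not among the 10, so specificity against them was not examined. Vcan, which encodes the matrix proteoglycan versican, had 1483 CPM against 28.8 CPM in astrocytes. C1ql1, which encodes a secreted C1q-related protein, had 235 CPM against 9.92 CPM in Cajal-Retzius neurons. Cspg4 had 786 CPM against 383 CPM in mural cells, the pericytes and smooth muscle cells that also carry NG2. Cspg5, the proteoglycan neuroglycan C, had 1519 CPM against 1137 CPM in astrocytes, and Olig1, a transcription factor of the whole lineage, had 2056 CPM against 832 CPM in oligodendrocytes. Each of the 6 markers was above every other compared class in 6 of 6 mice.

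**Figure D1:**
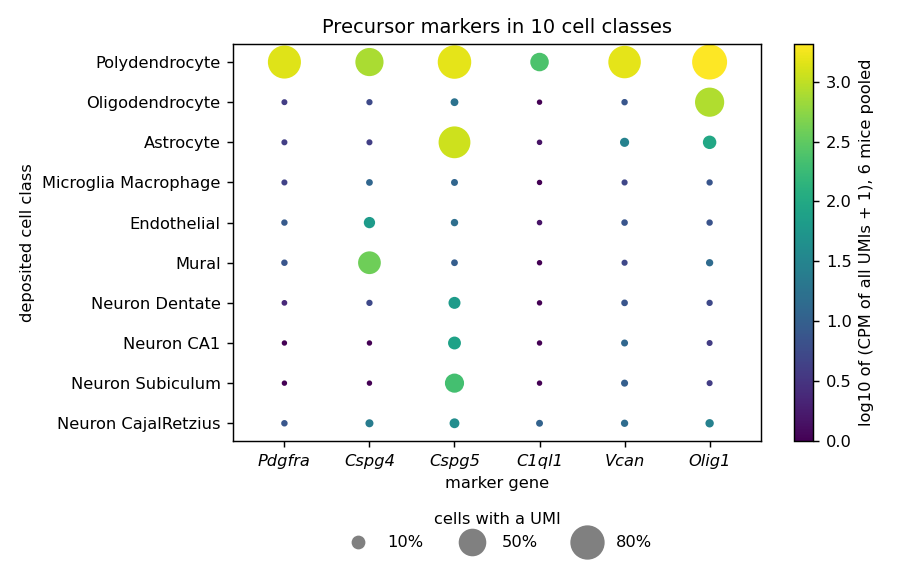
Pooled level (colour, log10 of CPM + 1) and share of cells with a UMI (dot size) of the 6 precursor markers in 10 deposited cell classes, polydendrocytes in the top row. Among these 10 classes, Pdgfra, Vcan and C1ql1 stand out in polydendrocytes alone. Cspg5 is also seen in astrocytes, Cspg4 in mural cells and Olig1 in oligodendrocytes.

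Cell by cell, 899 of 945 polydendrocytes (95.1%) held a UMI of at least 2 of the 6 markers, against 2% of oligodendrocytes, 9.96% of astrocytes and 0.221% of endothelial cells. At least 4 markers were seen in 607 cells, or 64.2%. The 9 cells without a UMI of any marker remained in the class, since membership followed the deposited name. Markers of other cell types were low but present. The summed level of 6 microglial markers was 22.9, 47.7 and 31.1 CPM in the ASO mice and 11.8, 50.8 and 36.1 CPM in the PBS mice, with Tmem119 at 0. Of 6 macrophage markers, Pf4, Cd163 and Lyve1 were at 0. A list of 6 choroid plexus genes summed to 3887, 2964 and 6486 CPM in the ASO mice and 3759, 5384 and 581 CPM in the PBS mice, the same split by mouse as for Ttr.

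The genes most particular to the class by level were Neu4, Pdgfra, Gpr17, Vcan, Cacng4, Angptl1, Cdo1, Shc4, Sapcd2, Nxph1, C1ql1, Matn4, Traf4, Emid1 and the noncoding A930009A15Rik. These 15 had the highest ratio to the next of the compared classes among 3204 genes with at least 50 CPM in every mouse. Of those 3204, 717 were highest in polydendrocytes among the compared classes. In 139 genes the level was at least 2 times that of the next class, and in 30 at least 5 times. Neu4, a sialidase of the lineage, had 424, 429 and 508 CPM in the ASO mice and 462, 443 and 413 CPM in the PBS mice, against 1.35 CPM in astrocytes, the next class. Gpr17, a receptor that marks precursors on the way to differentiation, had 378 CPM against 2.70 CPM in oligodendrocytes. Cacng4, an auxiliary subunit of AMPA-type glutamate receptors, had 1485 CPM against 33.1 CPM in Cajal-Retzius neurons. Nxph1, a secreted ligand of neurexins, had 631 CPM against 26.4 CPM in Cajal-Retzius neurons. Matn4, a matrix protein of the matrilin family, had 388 CPM against 23.1 CPM in oligodendrocytes, and Cdo1, which breaks down cysteine, had 452 CPM against 15.3 CPM in astrocytes.

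By function, 18 of the 19 measured precursor identity genes were highest in polydendrocytes among the compared classes by pooled level, and 17 were so in every mouse. Among genes of the extracellular matrix and proteoglycans, 9 of 16 with at least 20 UMIs in the class were highest there, and 8 were so in every mouse. Ptprz1, a receptor phosphatase with chondroitin sulphate chains, had 3361 CPM against 1924 CPM in astrocytes, and Serpine2, an extracellular protease inhibitor, had 1811 CPM against 1230 CPM in astrocytes. Genes of adhesion and synaptic organisation were highest in polydendrocytes in 12 of 24 cases, and 7 were so in every mouse. Cntn1, a contactin that binds axonal and glial partners, had 1215 CPM against 609 CPM in dentate neurons, and Lrrc4c, a netrin-G ligand, had 1874 CPM against 1224 CPM in subiculum neurons. Of 25 genes for glutamate and GABA receptors and their auxiliary subunits, 5 were highest in polydendrocytes. Gria4 had 645 CPM against 515 CPM in subiculum neurons, whereas Gria2 had 1294 CPM against 2944 CPM in CA1 neurons, and Gria3 had 565 CPM against 1056 CPM in CA1 neurons. Of 14 myelin genes, 0 were highest in polydendrocytes: Mbp, which encodes myelin basic protein, had 825 CPM against 6378 CPM in oligodendrocytes.

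Part of the class carried several markers of the committed stage. Each cell was scored by how many of 9 committed precursor markers (Bmp4, Gpr17, Neu4, Enpp6, Bcas1, Tcf7l2, Fyn, Itpr2 and Sirt2) it held a UMI of, and the median cell held 2. A minimum of 5, set after the data were seen, marked 81 cells, or 8.57% of the class with 11.2% of its UMIs. The limit cuts a range: 37 cells held exactly 5 and 81 held exactly 4. When the cells were clustered anew, 896 polydendrocytes fell in a main cluster and 38 in a separate one, of which 36 held at least 5. Most of the 81 were thus not in the separate cluster. The 81 are called committed cells below by their marker count alone. At least 5 were seen in 2 of 1877 astrocytes (0.107%) and in 1 of 3000 oligodendrocytes (0.0333%), at median depths of 1095 and 1037 UMIs against 1053 in polydendrocytes. Cells over the limit were deeper, with a median of 1471 UMIs against 921 in cells with 0 or 1 marker, and shares thinned to equal depth are given beside the comparison of groups.

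Genes outside the score differed between these 81 cells and the rest of the class. Pdgfra had 474 CPM in the 81 cells and 1513 CPM in the other 864, Cspg4 had 407 CPM against 834 CPM, and Cspg5 had 644 CPM against 1629 CPM. Vcan differed little, with 1423 CPM in the 81 cells against 1491 CPM in the others. Several myelin genes stood the other way: Mbp had 3930 CPM against 435 CPM, Mag 720 CPM against 26.6 CPM, and Cldn11 932 CPM against 41.5 CPM. Not all did so: Mobp had 152 CPM against 111 CPM, and Ptgds 186 CPM against 262 CPM. Enpp6, a phosphodiesterase of newly forming oligodendrocytes and itself one of the 9, had 82 of its 83 UMIs in the 81 cells. A gene without a known place in the stage followed the same line: Frmd4a, a FERM domain scaffold protein, had 872 CPM in the 81 cells against 56.4 CPM in the others. Values are pooled over mice and the cells were grouped by their own reads, so no test was made.

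**Figure D2:**
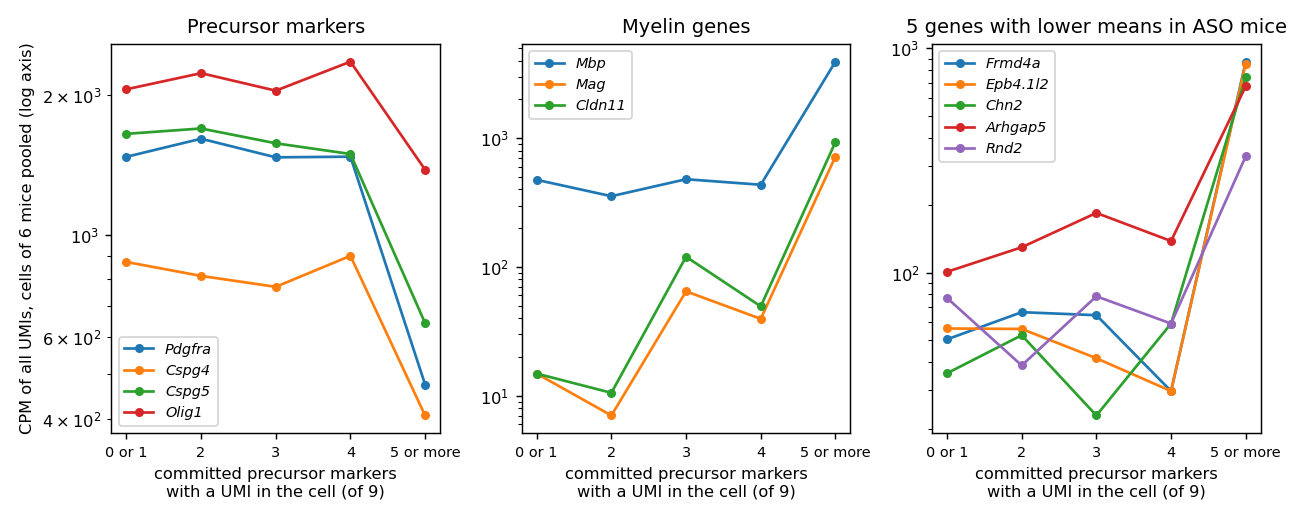
Level in polydendrocytes (CPM of all UMIs, log axis, cells of 6 mice pooled) by the number of the 9 committed precursor markers with a UMI in the cell. Pdgfra, Cspg4, Cspg5 and Olig1 are lowest in the last bin, where Pdgfra has 474 CPM. Mbp, Mag, Cldn11, Frmd4a, Epb4.1l2, Chn2, Arhgap5 and Rnd2 are highest there. Vcan, which is not drawn, has 1423 CPM in the last bin and 1401 CPM at 0 or 1 marker.

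The share of polydendrocytes among recovered cells overlapped between ASO and PBS mice, with a wide spread in each group. They made up 5.88% of all cells (95% exact Clopper-Pearson interval 5.04 to 6.81), 10.1% (8.89 to 11.5) and 4.85% (3.90 to 5.97) in the ASO mice. In the PBS mice they made up 7.85% (6.66 to 9.18), 6.26% (5.24 to 7.41) and 10.0% (8.80 to 11.4). The group means were 6.96% ± 2.81 in ASO mice and 8.05% ± 1.90 in PBS mice (SD, n = 3 each), a difference of -1.09 percentage points (two-sided exact permutation p = 0.6, where the smallest possible p is 0.1). Among polydendrocytes and oligodendrocytes together, the precursor share was 18.3%, 29.1% and 17.4% in the ASO mice and 23.9%, 21.8% and 33.1% in the PBS mice. These shares averaged 21.6% ± 6.52 in ASO mice and 26.3% ± 5.98 in PBS mice (SD, n = 3 each), a difference of -4.69 percentage points (exact permutation p = 0.5). The groups overlapped by either measure, and the intervals cover counting error only. Shares after tissue dissociation depend on which cells survive it.

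Few genes of polydendrocytes differed between ASO and PBS mice. UMIs were summed per mouse and compared with edgeR's quasi-likelihood test over 4479 genes that passed a low-count filter, with Benjamini-Hochberg adjustment and a limit of 0.05. Frmd4a was lower and Ptgds, which encodes prostaglandin D synthase, was higher in ASO mice. These 2 genes are 0.0447% of those tested, or 0.0223% in each direction. At an unadjusted p below 0.05 there were 181 genes, where 224 would be expected by chance. The 3 ASO mice all lay below the 3 PBS mice in 206 genes (4.60%) and all above them in 197 (4.40%). DESeq2 and limma voom on the same sums called 0 genes, with 36 and 202 at an unadjusted p below 0.05. With mice paired by a ratio of mitochondrial transcripts as a block, a pairing that the labels do not give, 5 genes were called, 1 higher and 4 lower.

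Mylip itself could not be compared in this class. Polydendrocytes held 1, 0 and 1 Mylip UMIs in the ASO mice and 0, 4 and 1 in the PBS mice, too few for the filter. Pooled, that is 3.99 CPM in ASO mice and 8.99 CPM in PBS mice, where 3 UMIs are worth 5.98 and 5.39 CPM. A change in the precursors themselves was therefore not detectable at this depth.

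The gene with the lower call was Frmd4a, at chromosome 2, 4017717 to 4614043 on the plus strand of GRCm38. It had 9, 22 and 8 UMIs in the ASO mice against 42, 23 and 52 UMIs in the PBS mice. After normalisation to the UMIs of tested genes, that is 66.1, 117 and 105 CPM in the ASO mice and 312, 204 and 269 CPM in the PBS mice, and the groups did not overlap. The mean of Frmd4a was 96.1 ± 26.7 CPM in ASO mice and 262 ± 54.3 CPM in PBS mice (SD, n = 3 each). Frmd4a thus had a log2 fold change of -1.44 ± 0.287 (SE), with an adjusted p of 0.0177 by edgeR's quasi-likelihood test. Without ASO mouse 1 the log2 fold change was -1.21 (edgeR adjusted p = 0.523), and without PBS mouse 1 it was -1.32 (edgeR adjusted p = 0.426). With the mice ordered by a ratio of 2 mitochondrial transcripts and taken as 3 pairs of 1 ASO and 1 PBS mouse, a split that the labels do not name, the log2 difference was -0.80, -2.24 and -1.36.

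Frmd4a UMIs were concentrated in the committed cells. Of its 156 UMIs, 103 (66.0%) were in the 81 cells with at least 5 committed markers. In the other 864 cells it had 50.2, 44.5 and 76.2 CPM of all UMIs in the ASO mice and 35.8, 33.4 and 88.1 CPM in the PBS mice, where the groups overlapped. With the 81 cells left out and no low-count filter, the log2 fold change was -0.17 (SE 0.437, edgeR adjusted p = 0.969). The 9 committed markers summed to 3057, 3363 and 2760 CPM of all UMIs in the ASO mice and 4019, 3773 and 2959 CPM in the PBS mice, and 6 oligodendrocyte markers to 5404, 3146 and 1193 CPM against 5558, 4527 and 2386 CPM. Both sums overlapped between groups, and their part in the result was not tested.

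The 7 genes next to Frmd4a by p among those with a lower level in ASO mice were Epb4.1l2, Enpp6, Chn2, Arhgap5, Rnd2, Phka1 and Dennd4a, and none passed the adjusted limit. Epb4.1l2, which links membrane proteins to the cortical cytoskeleton, had 66.1, 133 and 78.6 normalised CPM in the ASO mice and 335, 267 and 171 in the PBS mice (log2 fold change -1.34 ± 0.304 SE, adjusted p by edgeR's quasi-likelihood test = 0.0939). Enpp6 had 7.35, 74.7 and 13.1 normalised CPM in the ASO mice and 260, 116 and 98.4 in the PBS mice (log2 fold change -1.95 ± 0.460 SE, adjusted p by edgeR's quasi-likelihood test = 0.111). Chn2, a chimaerin that turns off Rac, had 58.8, 96.1 and 78.6 normalised CPM in the ASO mice and 379, 160 and 129 in the PBS mice (log2 fold change -1.44 ± 0.349 SE, adjusted p by edgeR's quasi-likelihood test = 0.131). In each of these 3 genes, picked by low p, the groups did not overlap, as in 206 (4.60%) of all tested genes in this direction. PBS mouse 1 was the highest of the 6 mice in all 3.

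Arhgap5, a GTPase-activating protein, and Rnd2, a small GTP-binding protein, had log2 fold changes of -0.90 and -1.22, both at an edgeR adjusted p of 0.762. Most of these genes shared the distribution of Frmd4a over cells: 68.2% of Epb4.1l2 UMIs, 69.8% of Chn2 UMIs, 39.0% of Arhgap5 UMIs and 39.4% of Rnd2 UMIs were in the 81 committed cells, which held 11.2% of all UMIs. Phka1, a subunit of phosphorylase kinase, with 6.33%, and Dennd4a, a regulator of Rab proteins, with 9.17%, did not share it. Phka1 had 110, 139 and 144 normalised CPM in the ASO mice and 208, 222 and 274 in the PBS mice (log2 fold change -0.87, edgeR adjusted p = 0.762). Dennd4a had 88.2, 85.4 and 78.6 normalised CPM in the ASO mice and 112, 169 and 212 in the PBS mice (log2 fold change -0.98, edgeR adjusted p = 0.997).

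Over the whole table, 46 of the 4479 tested genes (1.03%), the 9 scored markers left out, had at least 30% of their UMIs in the 81 committed cells. Of these 46, 42 had a lower and 4 a higher level in ASO mice, with a median log2 fold change of -0.35. Among the 4424 other genes 2152 had a lower level in ASO mice and the median was 0.01. The 46 share the same few cells and are not independent. They were also chosen on UMIs pooled over both groups, and 47 of the 81 cells came from PBS mice against 34 from ASO mice. The choice itself thus leans to genes with a lower level in ASO mice, and the count is only a description. With the 81 cells left out, Chn2 had 50.1, 34.6 and 52.4 normalised CPM in the ASO mice and 42.3, 8.33 and 51.3 in the PBS mice (log2 fold change 0.24, edgeR adjusted p = 0.964). For Epb4.1l2, Arhgap5 and Rnd2 the log2 fold changes without the 81 cells were -0.72 (SE 0.472), -0.57 (SE 0.304) and -0.95 (SE 0.424), each at an edgeR adjusted p of 0.851. Rnd2 had 43.8, 54.4 and 21.0 normalised CPM in the ASO mice and 106, 75.0 and 74.7 in the PBS mice, so the groups still did not overlap. Nor did they in Arhgap5, with at most 124 in the ASO mice and at least 125 in the PBS mice, while in Epb4.1l2 they overlapped. Enpp6, one of the 9 markers that chose the cells left out, had 1 UMI remaining. Phka1 was little altered, at -0.89, and Dennd4a at -1.19, with edgeR adjusted p of 0.851 and 0.830.

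**Figure D3:**
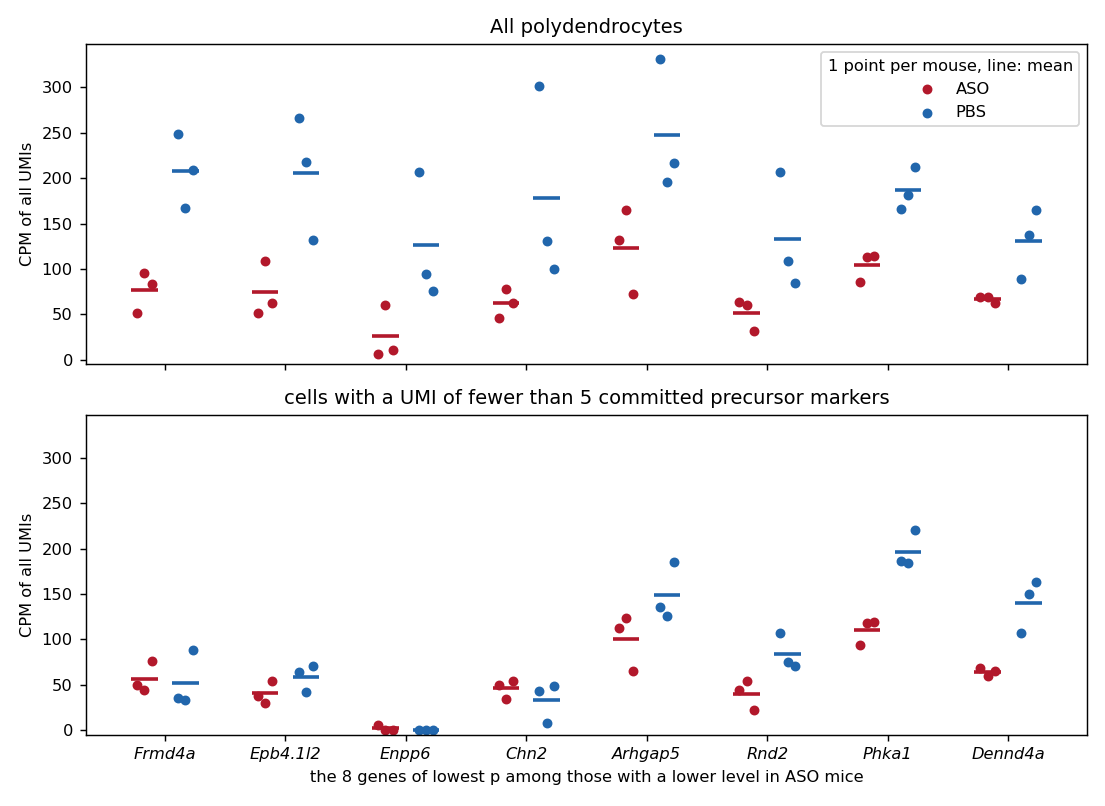
Level per mouse (CPM of all UMIs; points are mice, lines are group means; ASO left, PBS right) of the 8 genes with the lowest p among those with a lower level in ASO mice, in all 945 polydendrocytes (top) and in the 864 with a UMI of fewer than 5 committed markers (bottom). Frmd4a and Chn2 overlap between groups in the bottom panel and Enpp6 is near 0, while Rnd2, Phka1 and Dennd4a remain apart and Arhgap5 narrowly so.

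The share of committed cells itself overlapped between ASO and PBS mice at the limit of 5 markers and not at 6. Cells with at least 5 markers were 10 of 166, 21 of 213 and 3 of 85 in the ASO mice, or 6.02% (exact interval 2.93 to 10.8), 9.86% (6.21 to 14.7) and 3.53% (0.734 to 9.97). In the PBS mice they were 20 of 143, 12 of 126 and 15 of 212, with exact intervals of 8.76 to 20.8%, 5.02 to 16.0% and 4.01 to 11.4%. The means were 6.47% ± 3.19 in ASO mice and 10.2% ± 3.50 in PBS mice (SD, n = 3 each). At 4 markers or more they were 16.4% ± 3.47 in ASO mice and 17.6% ± 4.16 in PBS mice. At 6 or more they were 2.80% ± 1.27 in ASO mice and 6.49% ± 1.84 in PBS mice, and the groups did not overlap.

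Since PBS polydendrocytes had somewhat more UMIs, each cell was also thinned to 500 UMIs. The share with at least 5 markers was then 1.84% ± 1.68 in ASO mice and 4.24% ± 1.68 in PBS mice, again with overlap (SD, n = 3 each). With at least 4 it was 4.27% ± 1.71 in ASO mice and 7.64% ± 2.32 in PBS mice, also with overlap. With at least 6 it was 0.705% ± 0.622 in ASO mice and 1.62% ± 0.246 in PBS mice, without overlap but on 0 to 4 cells per mouse. No test was made, since limits and score were chosen with the values known.

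**Figure D4:**
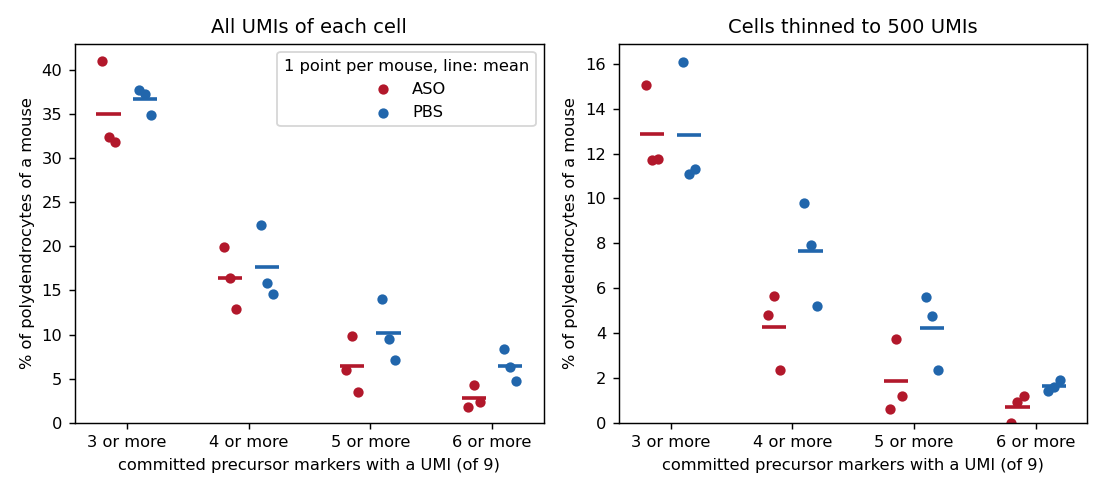
Share of each mouse's polydendrocytes with at least 3, 4, 5 or 6 of the 9 committed precursor markers (points are mice, lines are means; ASO left, PBS right), from all UMIs and after thinning to 500 UMIs per cell. The group means lie close at 3 or more and at 4 or more in the unthinned cells, and apart at 6 or more, at 2.80% in ASO and 6.49% in PBS mice.

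The higher call, Ptgds, rested on few cells. Ptgds, at chromosome 2, 25466709 to 25470046 on the minus strand of GRCm38, is made mainly by mature oligodendrocytes and meningeal cells. It had 163, 52 and 7 UMIs in the ASO mice and 23, 15 and 8 UMIs in the PBS mice. Normalised, that is 1198, 278 and 91.7 CPM in the ASO mice and 171, 133 and 41.4 CPM in the PBS mice, so the groups overlapped and ASO mouse 1 stood far above the rest. The log2 fold change was 2.34 (SE 0.428, edgeR adjusted p = 0.00707).

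In ASO mouse 1, 150 of the 163 UMIs came from 6 cells with more than 10 Ptgds UMIs each, and in ASO mouse 2 a single cell gave 23 of 52. In the other cells the level was 76.7, 126 and 72.6 CPM of all UMIs in the ASO mice and 136, 109 and 32.1 CPM in the PBS mice. When the cells were clustered anew, 8 polydendrocytes fell among oligodendrocytes, 7 of them from ASO mouse 1 and 1 from ASO mouse 3. The cells with more than 10 Ptgds UMIs held 36, 32, 32, 23, 21, 18 and 11 of them. In that order they held 2, 9, 5, 0, 4, 3 and 0 Mbp UMIs. Of the 6 precursor markers they held 2, 0, 1, 3, 1, 2 and 3. The cells with 23 (ASO mouse 2) and 11 (ASO mouse 1) clustered with polydendrocytes, and the others with oligodendrocytes. Oligodendrocytes had 7313 CPM of Ptgds, and fibroblast-like cells had more, at 30713 CPM. Without ASO mouse 1 the log2 fold change was 0.996 (edgeR adjusted p = 0.744), and with the class taken from the clusters it was 0.84 (edgeR adjusted p = 0.997). Within the same 3 pairs of mice the log2 difference was 1.06, 2.81 and 1.15.

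**Figure D5:**
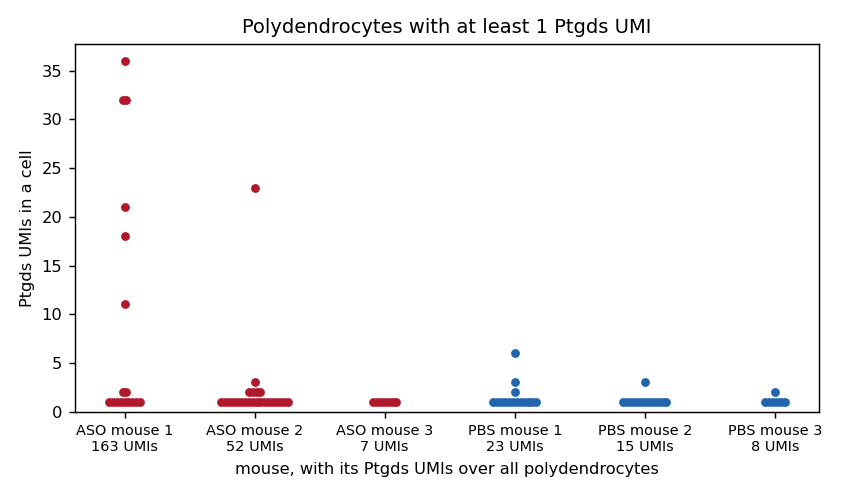
Ptgds UMIs in each polydendrocyte that held at least 1 (points are cells), by mouse, the 3 ASO mice left of the 3 PBS mice. Most such cells held 1 UMI in every mouse, and the cells with more than 10 were 6 of ASO mouse 1 and 1 of ASO mouse 2.

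The 7 genes next to Ptgds by p among those with a higher level in ASO mice were Gadd45g, Mpc2, Mobp, Reep1, St6gal2, Epc1 and Hcfc1r1. In each of them the groups did not overlap, as in 197 (4.40%) of all tested genes in this direction. They were picked by low p, so the lack of overlap adds nothing to the test. Their edgeR adjusted p was 0.760 to 0.997. Gadd45g, a stress-induced inhibitor of cell cycle progression, had 162, 101 and 170 normalised CPM in the ASO mice and 66.9, 35.6 and 56.9 in the PBS mice (log2 fold change 1.32, SE 0.378). Mpc2, a subunit of the mitochondrial pyruvate carrier, had 338, 331 and 393 in the ASO mice and 186, 231 and 197 in the PBS mice (log2 fold change 0.78, SE 0.236). Mobp, a myelin protein, had 228, 181 and 170 in the ASO mice and 81.8, 124 and 98.4 in the PBS mice (log2 fold change 0.95, SE 0.293). Reep1, which shapes the endoplasmic reticulum, had 191, 235 and 301 in the ASO mice and 126, 124 and 129 in the PBS mice (log2 fold change 0.88, SE 0.271). St6gal2, a sialyltransferase, had a log2 fold change of 1.18, Epc1, a subunit of a histone acetyltransferase complex, 0.85, and Hcfc1r1 1.33. Unlike Frmd4a and Chn2, these genes were not concentrated in the committed cells, which held between 6.67% of the UMIs of Hcfc1r1 and 16.1% of those of Reep1.

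No gene of precursor identity differed between the groups by the test. Of 19 tested genes of precursor identity, 12 had a higher and 7 a lower level in ASO mice, none was called, and the median log2 fold change was 0.03 against 0.01 over all genes. Their fold changes ran from -0.26 to 0.23. Pdgfra itself is given per mouse above, and Ptprz1 had 4299, 4164 and 4364 normalised CPM in the ASO mice against 3949, 4285 and 4375 in the PBS mice (log2 fold change 0.02, SE 0.222). Of 9 tested committed precursor genes, 7 had a lower level, none was called, and the median was -0.26, with Tcf7l2, a Wnt pathway transcription factor of the committed stage, at -0.70 (SE 0.278). Bcas1 and Neu4, of the same list, were at 0.01 and 0.03. Of 9 tested myelin genes 1 was called, Ptgds, and the median was -0.02, with Mbp at -0.27 (SE 0.264).

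Receptors, channels and adhesion genes likewise gave no call. Of 18 tested glutamate and GABA receptor genes 11 had a higher level and the median was 0.07, with Cacng4 at 0.12 (SE 0.211), Gria2 at 0.11 (SE 0.209), Gria4 at 0.02 (SE 0.217) and Gria3 at -0.08 (SE 0.204). The 15 tested ion channel genes had a median of -0.04, and Kcnd2, a potassium channel, was at -0.09. Of 24 tested genes of adhesion and synaptic organisation 18 had a lower level, with a median of -0.06. The 15 tested matrix genes had a median of 0.02, and Serpine2 was at 0.17. The 12 tested Notch, BMP and Wnt genes had a median of -0.08, with Id2, an inhibitor of differentiation factors, at 0.48 (SE 0.234).

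For the lipid pathways that the target touches, the genes with values were few. Of 15 lipoprotein receptor genes, Mylip included, 5 passed the filter, 4 of them with a lower level in ASO mice, and the median was -0.11. Vldlr, a known substrate of IDOL at the protein level, had 169, 144 and 236 normalised CPM in the ASO mice and 260, 151 and 155 in the PBS mice (log2 fold change -0.11, SE 0.279). Apoe, a target of the sterol-sensing liver X receptors, had 3403, 3736 and 2831 normalised CPM in the ASO mice and 1889, 2854 and 2790 in the PBS mice (log2 fold change 0.41, SE 0.225), with overlap and no call. The 6 tested liver X receptor targets had a median of 0.10, and the 5 tested genes of cholesterol synthesis a median of -0.17. Of 11 tested genes of amyloid precursor processing 9 had a higher level, none was called, and the median was 0.20, with Itm2b at 0.36 (SE 0.209) and App at -0.12 (SE 0.206). The App value covers whatever transgene reads the counting assigned to it, and its share was not tested.

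Stress lists also gave no call. The 16 tested immediate early and dissociation genes had a median of 0.05, with Fos at 0.09 and Jun at 0.12. The 9 tested genes of the unfolded protein response had a median of 0.18. Hspa5, its main chaperone, had 294, 609 and 1848 normalised CPM in the ASO mice and 625, 809 and 575 in the PBS mice, so ASO mouse 3 stood apart. The 5 tested interferon and antigen presentation genes had a median of 0.01, with B2m, the shared chain of class I molecules, at 0.60 (SE 0.235). Of 6 tested cell cycle arrest genes, 3 had a higher and 3 a lower level, with a median of -0.04.

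Cells with UMIs of at least 2 cell cycle genes were few in either group. Of 945 polydendrocytes, 19 (2.01%, exact interval 1.21 to 3.12) held UMIs of at least 2 of 17 cycle genes such as Mki67 and Top2a. The share was 0.133% in oligodendrocytes, 0.107% in astrocytes, 1.32% in Cajal-Retzius neurons and 1.998% in microglia (37 of 1852). The 17 genes summed to 135 CPM in polydendrocytes, 188 CPM in microglia and 202 CPM in Cajal-Retzius neurons. In the other compared classes the sum was at most 87.7 CPM, in endothelial cells. The score thus did not set polydendrocytes apart from every class, and whether the cells were dividing was not tested. By mouse the 19 polydendrocytes were 2, 3 and 1 cells in the ASO mice and 4, 4 and 5 cells in the PBS mice. These were 1.20%, 1.41% and 1.18% of the class against 2.80%, 3.17% and 2.36%. In polydendrocytes the 17 genes summed to 91.6, 91.0 and 93.4 CPM in the ASO mice and 237, 152 and 144 CPM in the PBS mice. The groups did not overlap. The count behind this was 46 UMIs in ASO and 97 UMIs in PBS mice. Mki67 had 0 UMIs in the ASO mice and 7 in the PBS mice, of which PBS mouse 1 held 6, and Top2a had 1 and 8.

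After thinning to 500 UMIs, cells with at least 2 cycle genes were 1, 2 and 0 in the ASO mice and 2, 1 and 1 in the PBS mice. Cells with at least 1 cycle gene were then 4.22%, 3.76% and 2.35% in the ASO mice and 9.79%, 7.14% and 6.13% in the PBS mice, and the groups did not overlap. With 5 broader genes added (Pcna, Hmgb2, Tuba1b, Stmn1 and H2afz), the sum was 406, 516 and 519 CPM in the ASO mice and 764, 675 and 529 CPM in the PBS mice, again without overlap. Of these 22 genes 3 passed the filter, and none was called. The 17 were picked from the 22 with results of these mice known, so no test was made.

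The effect of ASO differed between polydendrocytes and oligodendrocytes in 11 of 8384 genes (0.131%), tested as an interaction in edgeR's quasi-likelihood fit with the mouse as a block. At an unadjusted p below 0.05 there were 512 genes, where 419 would be expected by chance. Marcks, Cntn1 and Syt4 were higher in ASO mice in oligodendrocytes, at edgeR adjusted p of 1.42e-05, 1.90e-06 and 9.51e-05, and were not called in polydendrocytes. Marcks, a membrane protein that binds actin, had 2078, 1798 and 1598 CPM of all UMIs in polydendrocytes of the ASO mice and 2042, 1944 and 1844 CPM in those of the PBS mice. Its log2 fold change was -0.08 (SE 0.215) in polydendrocytes and 3.22 (SE 0.375) in oligodendrocytes, where it had 72, 28 and 36 UMIs in the ASO mice and 4, 2 and 5 UMIs in the PBS mice.

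Cntn1 had 1248, 1231 and 1256 CPM in polydendrocytes of the ASO mice and 1125, 1357 and 1143 CPM in those of the PBS mice. Its log2 fold change was 0.05 (SE 0.208) in polydendrocytes and 2.10 (SE 0.214) in oligodendrocytes. Syt4, a synaptotagmin, was at -0.09 (SE 0.418) in polydendrocytes and 5.16 (SE 0.690) in oligodendrocytes, with 23, 8 and 3 UMIs in polydendrocytes of the ASO mice and 9, 13 and 18 in those of the PBS mice. These 3 genes were among 16 that had been picked for their change in oligodendrocytes of these same mice, so the contrast is not independent evidence. Of the 16, 7 passed the filter in polydendrocytes, where none was called and the median was -0.08.

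Enpp6 and Chn2 formed the opposite case. Enpp6 was at -1.95 (SE 0.460) in polydendrocytes and 0.21 (SE 0.244) in oligodendrocytes, and Chn2 at -1.44 (SE 0.349) and 0.25 (SE 0.172). Without the 81 committed cells the difference in Chn2 was 0.01 (SE 0.412), and that in Enpp6 could not be judged, since Enpp6 is one of the markers by which those cells were chosen. With single mice left out, Enpp6 ran from -4.39 without ASO mouse 2 to -1.34 (edgeR adjusted p = 0.618) without ASO mouse 1. Chn2 was at -1.03 (edgeR adjusted p = 0.820) without PBS mouse 1. Ptgds was at 2.34 (SE 0.428) in polydendrocytes and 0.09 (SE 0.172) in oligodendrocytes, a difference that without ASO mouse 1 was 0.74 (edgeR adjusted p = 0.878). The haemoglobin genes Hbb-bs, Hba-a1 and Hba-a2 differed as well: Hbb-bs had 65, 399 and 32 UMIs in oligodendrocytes of the ASO mice and 31, 28 and 38 in those of the PBS mice, so ASO mouse 2 stood apart. In polydendrocytes Hbb-bs had 12, 23 and 7 UMIs in the ASO mice and 4, 12 and 54 in the PBS mice, so PBS mouse 3 stood apart there. The difference of -2.66 in Hbb-bs was -0.77 (edgeR adjusted p = 0.892) without ASO mouse 2 and -1.73 (edgeR adjusted p = 0.354) without PBS mouse 3. Fut9, a fucosyltransferase, and Pcdh17, a protocadherin, had differences of -1.45 and -1.003, the second at an edgeR adjusted p of 0.0497.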

How the data were processed

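Per the file headers, the authors deposited counts of UMIs per gene and cell without normalization, with mouse and cell class in each column name. The submitters' processing notes name bcl2fastq, STAR 2.5.0c and the builds mm10 and GRCm38. How UMIs were counted, and with which annotation, is not stated there. The deposited table held 28324 genes, and its cells had at least 501 detected genes and at most 15.0% mitochondrial UMIs, so no cell was removed by such limits.

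Doublets were called per mouse with Scrublet in scanpy 1.11.5 (207 of 12823 cells, 1.61%) and removed. UMIs of the class were summed per mouse, filtered with filterByExpr, scaled by TMM and tested with edgeR 4.0.16 (R 4.3.3; quasi-likelihood test, Benjamini-Hochberg adjustment over all tested genes). The interaction fit held polydendrocytes and oligodendrocytes with the mouse as a block. DESeq2 1.42.0 and limma 3.58.1 (voom) served as alternatives. Shares were compared with exact permutation tests over mice, using scipy 1.17.1. Scripts were tested on simulated data. Gene positions are from GENCODE M21.

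Groups came from the treatment label. Replicates are numbered in sample order and are not paired by the labels. The ratio of 2 mitochondrial transcripts, mt-Rnr2 over mt-Cytb, was 4.49 in ASO mouse 2 and 7.16 in PBS mouse 2, 10.9 and 12.9 in mice 1, and 15.9 and 16.8 in mice 3. Ordered by it, the mice gave 3 sets of 1 ASO and 1 PBS mouse, a block in an alternative, although no label or header names such a batch and the ratios of the first set are not close.

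The class, its gene lists and the tests were chosen with earlier results of these data known. Genes named are Mylip and the 6 markers, called genes, the 8 lowest p in each direction, list members by level, and the 15 genes of highest ratio to the next class. Other genes named were chosen after their values were seen. The lists held 4 names that were not found in the table. Some items are not reported here.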

Additional observations from a re-analysis of the deposited data

Results flagged for a closer look

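In 11 genes the ASO effect in polydendrocytes differed from that in oligodendrocytes by the interaction test, and the log2 fold change in polydendrocytes minus that in oligodendrocytes is given here. It was -3.27 for Marcks, -2.04 for Cntn1 and -5.01 for Syt4, where the oligodendrocytes of ASO mice had the higher level. For Enpp6 it was -2.22 and for Chn2 -1.69, where the polydendrocytes of ASO mice had the lower level. It was 2.09 for Ptgds, and 0.74 without ASO mouse 1. The haemoglobin genes had -2.66 for Hbb-bs, -3.56 for Hba-a2 and -2.62 for Hba-a1, with many UMIs in oligodendrocytes of ASO mouse 2. Fut9 had -1.45 and Pcdh17 -1.003. Groups of 3 mice were not searched for outlying samples.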

How the results depend on the processing

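The 2 calls of ASO against PBS in polydendrocytes depended on the settings. The count was 5 with no filter on low counts and 5 with the sets of mice by mitochondrial ratio as a replicate block, where Epb4.1l2, Chn2 and Enpp6 joined as lower. It was 1 with cells of at least 2 precursor markers, 1 with a robust edgeR fit, 1 with the class taken from clusters, and 1 each without cells of at least 4 committed or 3 oligodendrocyte markers. It was 0 with DESeq2, with limma voom and after thinning. Leaving out 1 mouse gave 0 to 5 calls, with 0 without ASO mouse 1 or PBS mouse 1. Without the cells of at least 5 committed markers and with no filter, the log2 fold change was 0.24 for Chn2 (SE 0.518) and 1.90 for Enpp6 (SE 2.09), the second of which rests on 1 UMI of a gene used to choose those cells and says nothing of its direction, and Ptgds and Cnp were among the calls, both higher in ASO mice. Without those cells but with the filter, the 2 calls were Ptgds and Cnp. These alternatives on committed and oligodendrocyte markers were chosen after seeing the data. Frmd4a had a value in 18 of the 21 alternatives, kept its sign in those 18 and its call in 11, and lost its call in 7. In the others it failed the low-count filter and was not tested. Those were the filtered fits without cells of at least 5 committed, 4 committed or 3 oligodendrocyte markers. Ptgds kept its sign in 21 of 21 and lost its call in 7.

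Of the 11 interaction calls, Marcks, Cntn1 and Syt4 kept theirs in 12 of 12 alternatives, and Pcdh17 lost its call in 12 of 12. The call was lost in 5 of 12 for Fut9, in 3 of 12 for each haemoglobin gene and in 1 of 12 for Ptgds. Under the replicate block Hbb-bs had -1.54 (edgeR adjusted p = 0.426), Hba-a1 -1.40 and Hba-a2 -2.60, and without ASO mouse 2 Hba-a1 had -0.62 and Hba-a2 -1.96. Enpp6 was not called in 4 of 12 and Chn2 in 5 of 12. The count ran from 7 to 14, and leaving out 1 mouse gave 7 to 10, with 7 without ASO mouse 1. Without cells of at least 5 committed markers, Chn2 had 0.010 (SE 0.412), near no difference, and Enpp6 had 2.30 (SE 2.08) on 1 UMI, a void value. Both cell shares kept their sign in 9 of 9 alternatives, with an exact permutation p above the limit. The cause of these shifts was not tested. Depth limits genes of low count, with 85 cells in ASO mouse 3.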
